A study of Rattus norvegicus with 24 samples.

Results

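Immediate early genes are switched on within minutes of a stimulus, before any protein has to be made, and their RNAs are lost again quickly. Growth factors, calcium, cyclic AMP, antigen receptors and mechanical stress reach them through kinases that act on factors already bound to their promoters, among them SRF with its ELK partners at CArG boxes and CREB at cyclic AMP response elements. Most encode transcription factors, such as the AP-1 proteins, and a few encode inhibitors that end the response, such as the phosphatase Dusp1. In dissected tissue they are known to respond to the steps between death and RNA extraction as well as to the state of the living animal.

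The genes followed here are 10 from that class, namely Fos, Jun, Junb, Egr1, Nr4a1, Atf3, Ier2, Ier3, Dusp1 and Btg2, chosen by name and matched to probe sets that carry 1 gene symbol in the annotation of the Affymetrix RAE230A array. A probe set was found for 9 of the 10, among 10411 genes with a single symbol. Btg2, which encodes an inhibitor of cell division, was not matched to a probe set and has no value here. RNA came from male Sprague-Dawley rats, with no treatment or altered allele named in the labels, aged 4, 10, 18 or 24 months, and from 6 tissues, namely pituitary, hypothalamus, kidney, liver, bone and spleen lymphocyte. Each of the 24 arrays held 1 tissue at 1 age, with equal amounts of RNA from 10 rats mixed before hybridisation, and all tissues at an age were from the same animals. The design therefore has 1 array per tissue and age, and the spread used below is between arrays, not between rats. In the tissue and age tests it is what remains after tissue and age are taken out as factors. In the late-against-early test it is that between neighbouring ages of a tissue. The labels say that tissues were taken out within 10 minutes, rinsed and kept on ice in Trizol. The sources used here do not say how lymphocytes were separated from the spleen.

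Values are MAS5 signals, linear intensities that the authors scaled to a target of 500 on each array, and a signal of 100 served as the floor below which values were not ordered. On the log2 scale, 1 unit is a doubling. The tissue and late-against-early tests covered the 9682 genes at 100 or more on at least 4 arrays, and the age tests the 8452 at 100 or more on at least 12. All 9 measured genes passed the first filter. Atf3 passed it only through the 4 spleen lymphocyte arrays and so had to be higher there. Counts in the tissue and age tests are therefore given for the other 8, the ones that also passed the second. Late-against-early and 2-fold counts include Atf3.

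By defining markers each tissue was highest for its own list. The summed signal of 8 measured lymphocyte markers was 52448 to 56496 in spleen lymphocyte and at most 11383 elsewhere. Cd74 and Cd3g gave the most there, with geometric means of 31658.5 and 10322. Cd79b did not set the tissue apart, with 1184 there and 1225 in bone, nor did Cd4, with 206 there and 386 in bone. The other markers of the list were highest in spleen lymphocyte. Among the other lists, Kl stayed under 100 in kidney and Sost under 100 in bone. Alpl, on the bone list, was higher in kidney than in bone, with geometric means of 1222 and 425. Fgb, on the liver list, was low in liver, with 191 there and 126 in kidney. The spleen preparation also held macrophage markers, with a summed signal of 14447 to 20998 against 2937 to 9389 in hypothalamus, pituitary, liver and kidney and 24552 to 37323 in bone, red cell markers at 15995 to 31483 against 36552 to 59826 in bone, and neutrophil markers at 1523 to 8570 against at most 410 in hypothalamus, pituitary, liver and kidney and 31991 to 83610 in bone. The 10-month hypothalamus array stood apart, with liver markers summing to 12948 against 1406 to 2741 on the other 3 hypothalamus arrays and at least 206978 in liver, and hypothalamus results are also given without it. Array medians ran from 213 to 309. As a sign of RNA quality, the log2 ratio of the 3 prime to the 5 prime Gapdh probe set was 1.16 to 2.40 in spleen lymphocyte, 0.74 to 2.06 in liver and at most 0.80 in the other 4 tissues. The same ratio for Actb was 1.88 to 3.74 in spleen lymphocyte and overlapped every tissue except bone (0.48 to 1.56).

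The promoter sequences were searched for motifs of the known inputs. The RefSeq table (build GRCr8) held the window from 250 bases before to 50 after the transcript start for 5 of the 9 measured genes. All 5 windows are printed. Capitals mark matches on either strand to the CArG box, the cyclic AMP response element TGACGTCA, its core TGACG, the EGR site GCGNGGGCG, the AP-1 site TGANTCA and the TATA box TATAAA. The GC box GGGCGG was searched but is left in lower case.
Junb, chr19:40080876-40081175, plus strand: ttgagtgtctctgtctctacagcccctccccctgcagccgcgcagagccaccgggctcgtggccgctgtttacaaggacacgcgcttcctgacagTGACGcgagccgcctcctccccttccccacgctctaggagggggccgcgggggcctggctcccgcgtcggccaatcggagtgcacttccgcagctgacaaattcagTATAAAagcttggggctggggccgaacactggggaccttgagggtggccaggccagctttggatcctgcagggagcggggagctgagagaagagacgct
Egr1, chr18:26736828-26737127, plus strand: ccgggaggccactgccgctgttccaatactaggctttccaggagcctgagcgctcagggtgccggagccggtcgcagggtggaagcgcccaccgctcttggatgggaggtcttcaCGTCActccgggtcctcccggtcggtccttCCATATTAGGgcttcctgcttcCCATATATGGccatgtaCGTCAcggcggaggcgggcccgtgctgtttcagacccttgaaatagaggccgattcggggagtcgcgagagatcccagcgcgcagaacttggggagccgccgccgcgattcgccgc
Nr4a1, chr7:134259888-134260187, plus strand: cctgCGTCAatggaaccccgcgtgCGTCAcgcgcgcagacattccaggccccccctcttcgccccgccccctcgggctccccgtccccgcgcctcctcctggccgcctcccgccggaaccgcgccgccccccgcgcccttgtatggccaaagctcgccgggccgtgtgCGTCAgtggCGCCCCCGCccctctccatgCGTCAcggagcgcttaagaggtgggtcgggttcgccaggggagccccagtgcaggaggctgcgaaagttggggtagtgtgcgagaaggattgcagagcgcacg
Ier2, chr19:40399123-40399422, plus strand: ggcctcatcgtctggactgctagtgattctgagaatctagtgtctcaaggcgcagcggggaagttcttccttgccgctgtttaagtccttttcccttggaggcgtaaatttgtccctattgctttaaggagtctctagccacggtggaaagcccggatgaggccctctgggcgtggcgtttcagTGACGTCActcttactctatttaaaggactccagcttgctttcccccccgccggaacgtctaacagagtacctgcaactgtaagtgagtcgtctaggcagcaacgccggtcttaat
Dusp1, chr10:17184603-17184902, plus strand: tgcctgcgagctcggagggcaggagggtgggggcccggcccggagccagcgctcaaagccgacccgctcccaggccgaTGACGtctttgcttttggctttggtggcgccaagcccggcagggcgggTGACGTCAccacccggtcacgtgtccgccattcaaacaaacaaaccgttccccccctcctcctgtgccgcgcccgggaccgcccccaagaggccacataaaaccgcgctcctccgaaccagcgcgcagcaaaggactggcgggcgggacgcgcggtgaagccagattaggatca

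All 5 windows held the core TGACG, which stood in 21.2% of the 33469 promoters of the table. Ier2 and Dusp1 held the whole element TGACGTCA, at -66 and -124 from the transcript start, against 1.83% of all promoters, and the core is part of it on both strands. Egr1 alone held the CArG box, in 2 copies at -105 and -83, against 1.64% of all promoters. Nr4a1 held the EGR site at -73, overlapping a GC box, against 4.98%, and Junb the TATA box at -49, against 14.2%. The GC box was in 2 of the 5 windows and in 33.1% of all, and the AP-1 site in 0 of the 5 and in 7.33% of all. These are matches of letters in a short window and say nothing about which factor was bound in these tissues.

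**Figure D1:**
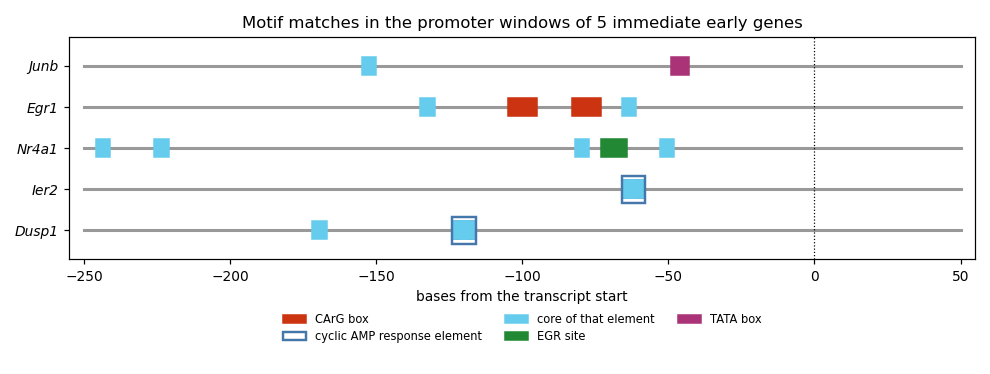
Motif matches in the promoter windows of 5 immediate early genes, by distance in bases from the transcript start (dotted line); each grey line is a window of 300 bases and each block a match on either strand, with the core of the cyclic AMP response element in light blue. All 5 windows hold the core, the 2 outlined whole elements lie in Ier2 and Dusp1, and the 2 CArG boxes lie in Egr1.

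The spleen lymphocyte arrays carried the highest levels of most of these genes at every age. Against the mean of the other 5 tissues, 7 of the 8 genes other than Atf3 were higher in spleen lymphocyte and Ier3 was lower, where 28.6% of all 9682 genes were higher and 34% lower. The median difference of the 8 was 2.64 on the log2 scale, against -0.08 over all genes. For 5 of the 8, namely Fos, Jun, Junb, Egr1 and Ier2, all 4 spleen lymphocyte arrays lay above all 20 others, which held for 7.76% of all genes. All 8 differed between tissues by the F test of limma, as did 88.7% of all genes, so that count alone does not set them apart. Spleen lymphocyte is the one separated cell type among dissected organs, so tissue and preparation cannot be told apart, and in bulk RNA more cells of a type cannot be told from more RNA per cell. The Gapdh ratio given above was also high in spleen lymphocyte, as were the macrophage, red cell and neutrophil markers, which were higher still in bone, and their part in these differences was not tested.

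**Figure D2:**
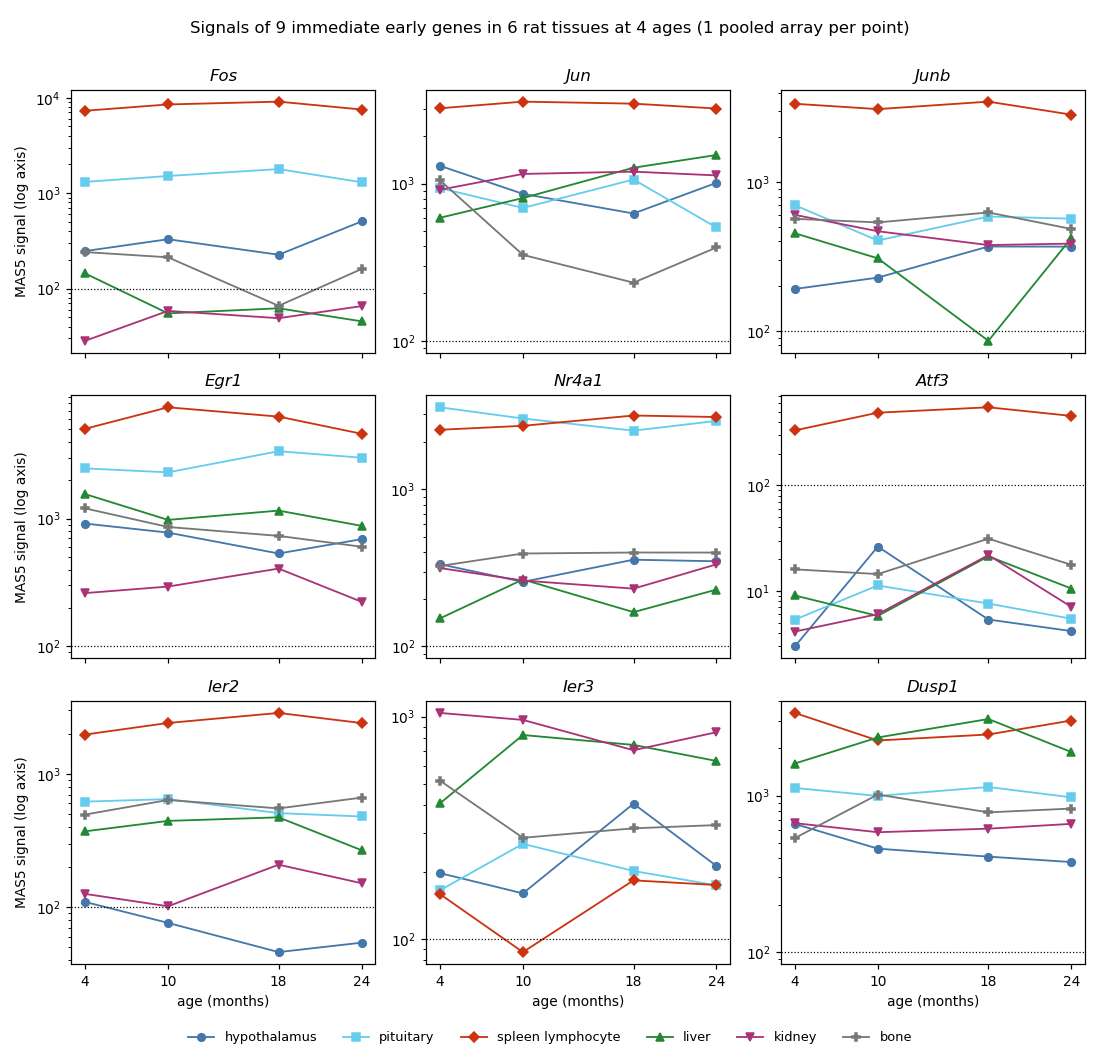
MAS5 signal (log axis, each panel with its own range) against age in months for 9 immediate early genes; each point is 1 array of RNA pooled from 10 rats, lines join the ages of a tissue, and the dotted line is the floor of 100. Spleen lymphocyte (red diamonds) lies above all other arrays for Fos, Jun, Junb, Egr1, Atf3 and Ier2, shares the top with pituitary for Nr4a1 and with liver for Dusp1, and has the lowest mean for Ier3.

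Fos, the AP-1 partner whose RNA is the common marker of a recent stimulus, had the widest range over tissues. Its signals in spleen lymphocyte were 7299.95, 8499, 9095 and 7523 at 4, 10, 18 and 24 months. In pituitary they were 1312, 1513, 1787 and 1301. The lowest spleen lymphocyte array was thus 4.08 times the highest other array, and the pituitary arrays in turn lay above those of the other 4 tissues. Hypothalamus followed with 247, 329, 226 and 505, overlapping bone with 241, 213, 66 and 160.3. In liver (144, 55, 62 and 45) and kidney (28, 58, 49 and 66) the gene was under the floor on 7 of 8 arrays. The difference of spleen lymphocyte from the other 5 tissues was 5.05 ± 0.19 on the log2 scale (SE, 4 arrays against 20, adjusted p = 4.0e-15), which ranked 10 of 9682 genes from the top, and was 2.42 with the mean of both Fos probe sets. Pituitary was higher than the mean of its other 5 by 2.10 ± 0.19 (adjusted p = 8.1e-09), while liver (-2.39 ± 0.19), kidney (-2.55 ± 0.19) and bone (-1.63 ± 0.19) were lower, all on the log2 scale and with values under the floor set to it. A second Fos probe set did not show this order. It stayed between 31 and 122 in spleen lymphocyte, was highest in kidney (123 to 349), and correlated at -0.26 with the first over the 24 arrays.

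Jun, which pairs with Fos and also acts alone in AP-1, was less tissue-bound. Its signals in spleen lymphocyte were 3011, 3318, 3222 and 3000.4, all above the highest other array, liver at 24 months with 1519. Below spleen lymphocyte, kidney (913, 1151, 1190.4 and 1127), liver (606, 809, 1261 and 1519), hypothalamus (1297, 860.2, 645 and 1011) and pituitary (935, 699.7, 1061 and 526) overlapped one another. Bone had 1050.4 at 4 months but 352, 234 and 392 at the later ages. Spleen lymphocyte was higher than the other tissues by 1.97 ± 0.27 on the log2 scale (adjusted p = 2.0e-06), and bone was lower at -1.47 ± 0.27 (adjusted p = 9.3e-05). The other 2 Jun probe sets had the same top tissue, with ranges in spleen lymphocyte of 2479 to 3282 and of 679.9 to 855 and no higher value than 920.4 and 430 elsewhere.

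Junb, an AP-1 protein that often restrains Jun, had spleen lymphocyte signals of 3367, 3099, 3479 and 2845. The 20 other arrays lay between 86 and 700.3, so the gap was 4.06-fold. Among them pituitary (406 to 700.3), bone (485 to 626) and kidney (378 to 603) overlapped, as did hypothalamus (192 to 369) and liver (86 to 454). The difference of spleen lymphocyte was 2.98 ± 0.26 (log2, adjusted p = 2.1e-09). Hypothalamus (-1.24 ± 0.26) and liver (-1.25 ± 0.26) were lower than their other 5 tissues, and the liver value rests in part on the 18-month array, the only Junb signal under the floor.

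Egr1, a zinc finger factor induced through SRF, reached 5052, 7444, 6292 and 4619 in spleen lymphocyte. Pituitary followed with 2476, 2305, 3374 and 3000.25, so the groups did not overlap, with a gap of 1.37-fold. Liver (879 to 1558), bone (603 to 1204) and hypothalamus (534 to 916) overlapped in the middle. Kidney, with 262, 294, 407 and 224, was below every other array. In limma, spleen lymphocyte was 2.71 ± 0.17 higher (adjusted p = 2.3e-11), pituitary 1.44 ± 0.17 higher (adjusted p = 5.9e-07) and kidney lower at -2.47 ± 0.17 (adjusted p = 1.1e-10), all as log2 differences from the other 5 tissues.

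Nr4a1 is an orphan nuclear receptor that corticotrophs use to transcribe Pomc and that antigen receptors induce in lymphocytes. For this gene alone, pituitary and spleen lymphocyte shared the top. Pituitary had 3329, 2825, 2364 and 2726, and spleen lymphocyte had 2395, 2537, 2951 and 2887. These ranges overlapped, and both lay far above the other 16 arrays, which ran from 151 to 396. The log2 differences from the other 5 tissues were 2.64 ± 0.14 for pituitary (adjusted p = 2.0e-12) and 2.57 ± 0.14 for spleen lymphocyte (adjusted p = 1.4e-12), while liver was lowest at -1.94 ± 0.14.

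Atf3, a repressor of the ATF family made in stressed cells, was above the floor in spleen lymphocyte only. Its signals there were 332, 490, 551 and 456, whereas the other 20 arrays gave 3 to 31, all under the floor. Since values under the floor have no order, the mean in spleen lymphocyte was at least 4.50-fold higher than in the other tissues, counted from the floor of 100. The fitted log2 difference, 2.17 ± 0.10, is set by the floor, since it was 1.17 with a floor of 200 and 3.17 with a floor of 50.

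Ier2 and Ier3 carry similar names but encode unrelated proteins, and they differed in direction in spleen lymphocyte, kidney and pituitary while both were lower in hypothalamus. Ier2, a nuclear protein of the fast response, had 1976, 2413, 2871 and 2409.7 in spleen lymphocyte, above all other arrays by 2.98-fold. Bone (495 to 664) and pituitary (479 to 647) came next and overlapped, then liver (267 to 472) and kidney (101 to 208), and hypothalamus was at the bottom (109, 76, 46 and 54). The log2 differences were 3.09 ± 0.15 for spleen lymphocyte (adjusted p = 4.0e-13) and -2.37 ± 0.15 for hypothalamus (adjusted p = 2.5e-11).

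Ier3, which guards cells against death signals, was instead lowest on average in spleen lymphocyte, with 159, 87, 183 and 175. Kidney had 1040 at 4 months, then 967, 706 and 851, and liver had 407, 827, 746 and 632. Bone (285 to 515), hypothalamus (160.04 to 406) and pituitary (165 to 268) lay between, and every neighbour in that order overlapped the next. Kidney was higher than its other 5 tissues by 1.69 ± 0.22 (adjusted p = 1.1e-06) and liver by 1.12 ± 0.22 (adjusted p = 0.00014), and spleen lymphocyte was lower at -1.37 ± 0.22 (adjusted p = 1.3e-05), on the log2 scale.

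Dusp1, the phosphatase that switches off the MAP kinases and is itself induced by glucocorticoids, was high in spleen lymphocyte and liver. Its signals were 3374, 2249, 2457 and 3018 in spleen lymphocyte and 1603, 2351, 3085 and 1898 in liver, which overlapped. Pituitary (975 to 1135), bone (535 to 1015), kidney (583 to 667) and hypothalamus (376 to 659) were lower and overlapped in turn. The log2 differences were 1.65 ± 0.17 for spleen lymphocyte (adjusted p = 3.9e-08, and 0.90 with the mean of both probe sets), 1.24 ± 0.17 for liver (adjusted p = 2.2e-06) and -1.43 ± 0.17 for hypothalamus (adjusted p = 3.5e-07). A second, dim probe set gave 17 to 261 over the arrays and had its highest mean in pituitary, not in spleen lymphocyte (r = 0.40 with the first).

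**Figure D3:**
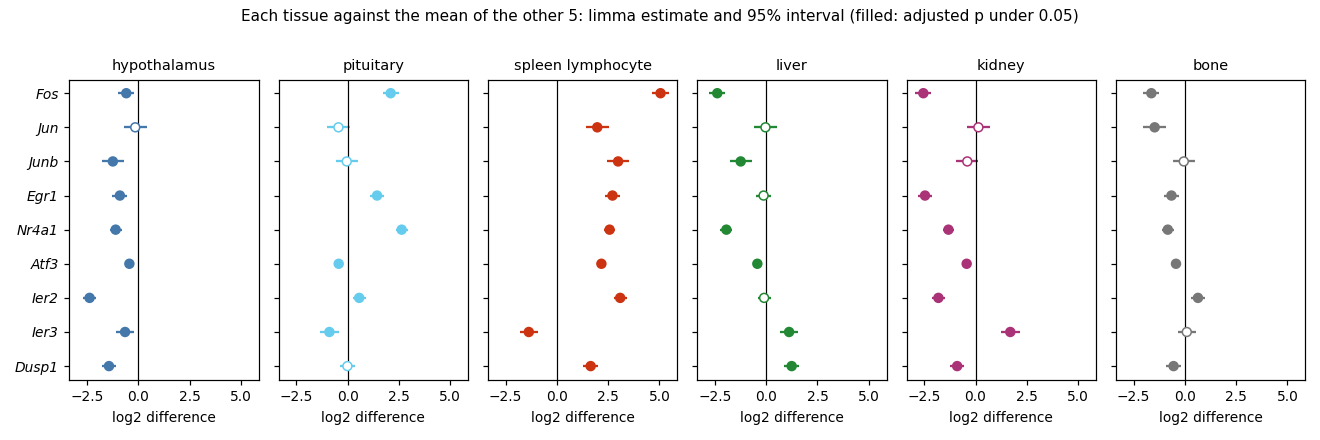
Log2 difference of each tissue from the mean of the other 5 for 9 immediate early genes, as the limma estimate with its 95% interval; filled points have an adjusted p under 0.05. Apart from Atf3, whose values are set by the floor of 100, spleen lymphocyte is higher for 7 genes, with Fos at 5.05, and lower for Ier3; hypothalamus has 7 lower and 0 higher.

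The other tissues differed in which of these genes they carried. Of the 8 genes other than Atf3, hypothalamus had 0 higher and 7 lower (all but Jun), against 25.2% and 32.3% of all genes. Ier3 was no longer called there without the 10-month hypothalamus array (-0.47, adjusted p = 0.12). Pituitary had 4 higher (Fos, Egr1, Nr4a1 and Ier2) and 1 lower, against 30.2% and 22.8%. The call of Ier2 in pituitary was lost with a floor of 200, with quantile normalization and with centring (adjusted p = 0.053, 0.0501 and 0.11). Liver had 2 higher (Ier3 and Dusp1) and 3 lower, against 21.1% and 41.3%. Kidney had Ier3 higher and 5 lower, against 22.4% and 31.7%, and bone had Ier2 higher and 5 lower, against 26.1% and 27.7%. A contrast with the other 5 tissues includes spleen lymphocyte, so the fit was repeated without its 4 arrays, an alternative added after the data had been seen. Hypothalamus then had 0 higher and 4 lower, against 24.4% and 30.2% of all genes. Pituitary had 4 and 1, against 30.2% and 21.6%, and liver 4 and 3, against 21% and 40.6%. Kidney had 1 and 5, against 21.2% and 29%, and bone 1 and 2, against 28.2% and 29%. The pituitary differences of Fos (3.24 ± 0.20), Nr4a1 (3.28 ± 0.15) and Egr1 (2.06 ± 0.18) were then larger than with spleen lymphocyte among the other tissues.

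Other early response genes were also high in spleen lymphocyte. A list of 63 further genes, made up of other immediate early genes, their regulators and heat shock genes, was drawn up with earlier results of these data known, and 54 of them were tested. Of these, 33 were higher in spleen lymphocyte and 6 lower, against 28.6% and 34% of all genes, with a median log2 difference of 1.19, and for 20 all 4 spleen lymphocyte arrays lay above the other 20, against 7.76% of all genes. The 20 include Fosb and Jund, which reached 100 on only 5 arrays, 4 of them spleen lymphocyte. These genes passed the filter through that tissue, much as Atf3 did, so they could hardly fail to be higher there. Over the 49 tested genes at 100 or more on at least 12 arrays, 31 were higher and 6 lower. Their median was 1.29, and 18 had all 4 arrays above. The shares of all genes past that stricter filter were not computed. Fosb, the close relative of Fos, had signals of 5766, 2916, 3269 and 1872 there and at most 118 on any other array. Its fitted difference (4.98 ± 0.16) is set by the floor, since it reached 100 on only 5 arrays. Klf2, a factor of quiescent lymphocytes, had 10938 to 13628 against at most 1983 (4.76 ± 0.14). The NF-kappaB inhibitor Nfkbia had 5845 to 8034 against at most 973 (4.17 ± 0.20), and the phosphatase Dusp2 had 2559.84 to 4396 against at most 934 (3.98 ± 0.20). Among the heat shock genes Dnajb1 was higher (0.76 ± 0.15), Hsph1 was lower (-0.38 ± 0.13) and Hspa1a did not pass the test. Ccn2 (-2.51 ± 0.24) and Id1 (-1.77 ± 0.15) were lower, and Egr3, Egr4, Fosl1, Fosl2, Arc and Socs3 did not pass in spleen lymphocyte. In the table of promoters, 56 of the list had a window, and the core TGACG was in 48.2% of them, the CArG box in 8.93% and TGACGTCA in 5.36%.

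**Figure D4:**
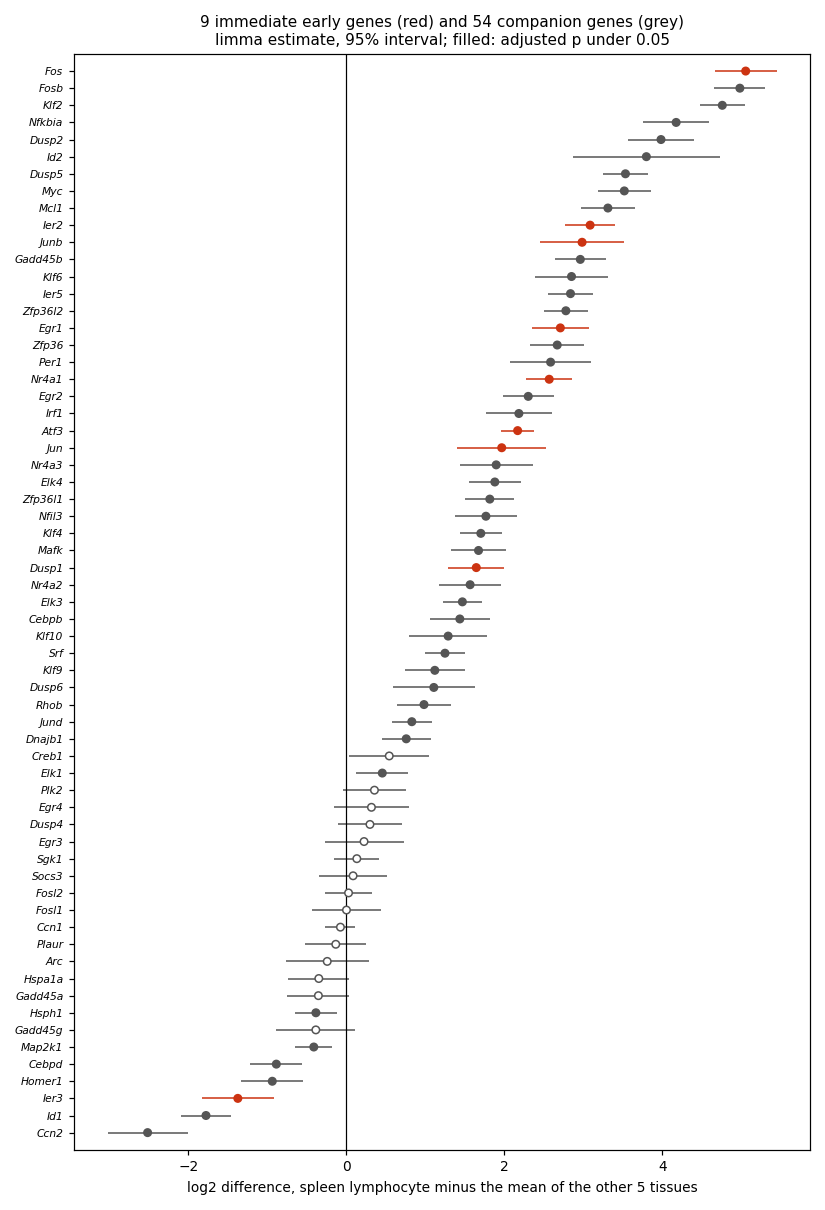
Log2 difference of spleen lymphocyte from the mean of the other 5 tissues, as the limma estimate with its 95% interval, for 9 immediate early genes (red) and 54 further early response genes (grey); filled points have an adjusted p under 0.05. Fos (5.05, or 2.42 with the mean of both probe sets) has the highest value and Ccn2 (-2.51) the lowest. The values of Fosb, Jund and Atf3 are set by the floor of 100.

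No age difference of these genes passed the test. Averaged over the 6 tissues, limma called 0 of the 8 tested genes from 4 to 10, 10 to 18, 18 to 24 or 4 to 24 months, where it called 0% of all 8452 genes in each. Without adjustment, only Egr1 from 4 to 24 months had a p under 0.05, with -0.38 ± 0.18 on the log2 scale, and it was lower in 5 of 6 tissues. That is 1 of 8 genes, where 6.27% of all genes had such a p. After adjustment by limma over all genes its p was 0.80. Its 95% interval ran from -0.77 to just under 0. The 95% intervals for Fos (-0.42 to 0.40) and Nr4a1 (-0.14 to 0.48) over the same span are narrower than that for Jun (-0.74 to 0.42). Fos was under the floor on every kidney array, on most liver arrays and on the 18-month bone array. These values were set to the floor, so kidney could show no change and liver only part of one. The width of the Fos interval thus depends in part on the floor.

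Within a tissue, the 2 late ages (18 and 24 months) were set against the 2 early ones (4 and 10 months), so that neighbouring ages stood in for replicates. None of the 9 genes was called in any tissue, where limma called 1.92% of all genes in hypothalamus, 0% in pituitary, 0.351% in spleen lymphocyte, 0.114% in liver, 0% in kidney and 0.496% in bone. At an unadjusted p under 0.05 there were 4 differences among the 54 gene and tissue pairs, all short of the adjusted threshold. That is 7.41% of the pairs, near the 8.21% over all genes. Some of the 54 pairs could not differ, namely Atf3 outside spleen lymphocyte and Fos in kidney, where every array was under the floor. The 4 were Fos in bone (-0.84 ± 0.31, adjusted p = 0.22), Jun in bone (-1.004 ± 0.42, adjusted p = 0.28), Jun in liver (0.98 ± 0.42, adjusted p = 0.58) and Ier2 in kidney (0.65 ± 0.25, adjusted p = 0.89), on the log2 scale. Both bone differences depend on single ages, since Jun passed without the 10-month arrays (-1.79, adjusted p = 0.040) and Fos without the 24-month arrays (-1.18, adjusted p = 0.041). The test of whether the late-against-early difference varied between tissues called 0 of the 9 genes and 1.02% of all genes, with Jun nearest (adjusted p = 0.49). With 2 arrays on each side of a tissue, the 95% interval of Jun spans -1.89 to -0.12 in bone and 0.10 to 1.87 in liver.

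**Figure D5:**
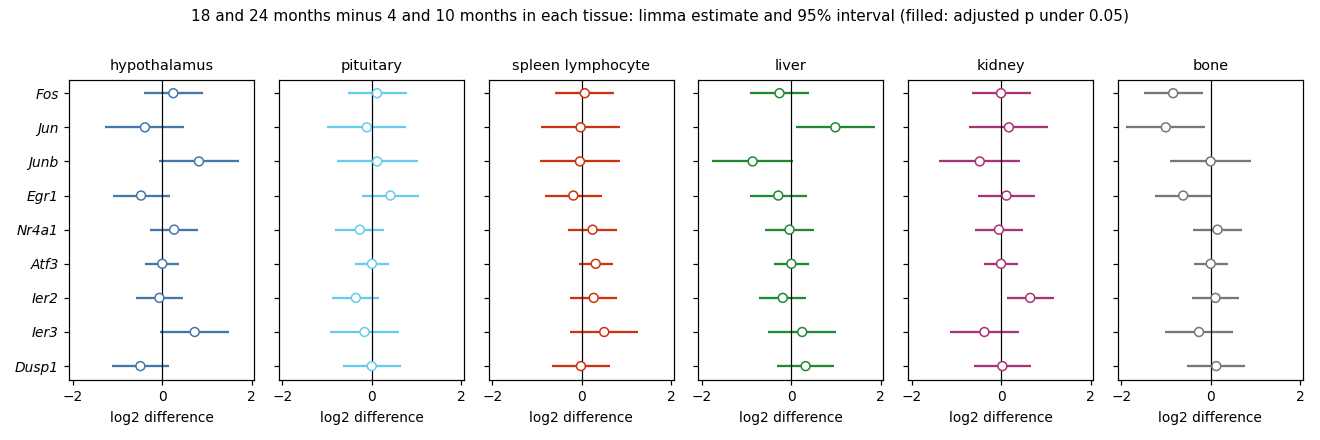
Log2 difference between the 18- and 24-month arrays and the 4- and 10-month arrays of each tissue for 9 immediate early genes, as the limma estimate with its 95% interval; open points have an adjusted p of 0.05 or more. No point is filled, and the farthest from 0 are Jun in bone (-1.004) and Jun in liver (0.98).

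Among pairs with both signals at 100 or more, Jun in bone and in liver differed most between the youngest and oldest arrays. Jun in liver went from 606 at 4 months to 1519 at 24 months, higher at each age than at the one before, and in bone from 1050.4 to 392, or 1.33 and -1.42 on the log2 scale. Most of the difference in bone lay between 4 and 10 months (-1.58). Cell markers in bone moved too, since the summed signal of its own list was 58244, 33319, 27286 and 20033 at the 4 ages and that of neutrophil markers 31991, 57389, 64281 and 83610, and their part in the Jun values was not tested. The other 2 Jun probe sets did not follow it throughout. In liver they had 290.1, 614, 920.4 and 488, and 164, 334, 429.9 and 235, so both peaked at 18 months. In bone one had 303, 202, 245 and 106 and the other 143, 191, 215 and 169, so only the first was lower at 24 than at 4 months.

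With 1 array on each side, changes between neighbouring ages of a tissue have no replicate check, and a change was counted at 2-fold with both signals at 100 or more. From 4 to 10 months 2 of 45 measured gene and tissue pairs passed, Ier3 in liver (1.02) and Jun in bone (-1.58), against 1.66% higher and 2.21% lower over all genes. From 10 to 18 months 2 of 43 passed, Ier3 in hypothalamus (1.34, from 160.04 to 406) and Ier2 in kidney (1.04, from 101 to 208), against 2.65% and 1.5%. The first rests on the 10-month hypothalamus array with liver markers, and from 4 to 18 months Ier3 there differed by 1.04 (from 197 to 406). From 18 to 24 months 2 of 44 passed, Fos in hypothalamus (1.16, from 226 to 505) and Jun in pituitary (-1.01, from 1061 to 526), against 1.6% and 1.99%. No gene passed in more than 1 tissue of a phase, and spleen lymphocyte had no such change, with Ier3 there left out for its 10-month signal of 87. There the highest signal of each of the 4 AP-1 and EGR genes was at most 1.61 times the lowest.

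Of the 54 further early response genes tested, 2 were called late against early in hypothalamus, against 1.92% of all genes. From 4 to 10 months 1.5% of their measured pairs were 2-fold higher and 2.63% lower, against 1.66% and 2.21% over all genes. From 10 to 18 months these shares were 4.17% and 0.758%, against 2.65% and 1.5%. From 18 to 24 months they were 2.25% and 1.87%, against 1.6% and 1.99%. In hypothalamus, Id2, an inhibitor of helix-loop-helix factors, had signals of 587, 441, 2758 and 11409, with both late arrays above both early ones (3.46 ± 0.49, adjusted p = 0.00038). Dusp6, a phosphatase of the ERK kinases, had 197, 211, 523 and 642 there (1.51 ± 0.26, adjusted p = 0.0022). Both passed without the 10-month hypothalamus array (3.26 ± 0.62, adjusted p = 0.0091, and 1.56 ± 0.33, adjusted p = 0.018). Klf10 was at least 2-fold higher from 10 to 18 months in spleen lymphocyte (1.25), liver (1.41) and kidney (1.27). In liver Klf10 had been lower from 4 to 10 months (-1.36). Its signals there of 542, 211 and 559.6 at 4, 10 and 18 months thus ended near where they began. In hypothalamus Klf10 was higher from 4 to 10 months (1.06), which rests on the 10-month hypothalamus array with liver markers. Ccn2 was lower from 4 to 10 months in liver (-1.002) and bone (-1.15). From 18 to 24 months Id2 was higher in hypothalamus (2.05) and bone (1.11), and Creb1, which encodes the factor that binds cyclic AMP response elements, in pituitary (1.10) and spleen lymphocyte (1.11).

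Most pairs of these genes correlated above 0 over tissue means, and fewer did so over the ages within a tissue. Over the means of the 6 tissues, leaving out Atf3, all 21 pairs without Ier3 correlated above 0, from 0.40 for Nr4a1 with Dusp1 to 0.93 for Fos with Nr4a1. All 7 pairs with Ier3 were below 0, down to -0.86 with Fos. Spleen lymphocyte is 1 of the 6 points in each, and all of these genes but Ier3 were higher there, so the counts partly restate that difference. The share of all gene pairs above 0 over tissue means was not computed. Deviations from the tissue mean over 24 arrays were correlated for the 28 pairs of the 8 genes in the age test. The median was -0.05, near the 0.004 of all gene pairs. Of the 28 pairs 11 were above 0, where 18072800 of the 35713900 pairs of all genes were. The 28 ran from -0.67 for Egr1 with Nr4a1 to 0.44 for Fos with Egr1. The mean deviation of the 8 genes was highest on the 4-month bone array (0.25) and lowest on the 18-month bone array (-0.22). The genes whose deviations were most like that mean were Fkbp9 (r = 0.80), Tmem185a (0.79), Fzd1 (0.78), Praf2 (0.75) and Kdelr3 (0.74), over 24 arrays that share their scaling and, within an age, their rats.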

How the data were processed

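The deposited values are MAS5 signals, linear intensities that the authors computed from the scanned probes and scaled to a target of 500 per array, 1 array for each of 6 tissues at 4 ages. Each array held RNA pooled from 10 rats, so the number of arrays limits the precision. Probe sets were named through GEO's platform annotation: of 15923, 12783 had 1 gene symbol and 312 several, and those with several or none named no gene. For each gene the probe set at 100 or more on the most arrays was kept, ties going to the higher mean. Signals were floored at 100 and tested on the log2 scale with limma 3.58.1 in R 4.3.3, with tissue and age as factors (15 residual degrees of freedom) or with late and early ages of each tissue as groups (12), and Benjamini-Hochberg adjustment at 0.05 over all genes of each contrast. As samples of a group are only the ages of a tissue, p-values measure the spread that each fit leaves between these arrays, not that between rats. The arrays of an age come from the same rats, and age as a factor in the tissue fit takes up that matching; the labels give no replicate numbers. Figures were drawn with matplotlib 3.10.9 in Python 3.11.15.

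The named genes are all members, the further early response genes past an age test or 2-fold the same way in at least 2 tissues, and the 5 genes most like the members' mean. Fosb, Klf2, Nfkbia, Dusp2, Dnajb1, Hsph1, Hspa1a, Id1, Dusp6, Egr3, Egr4, Fosl1, Fosl2, Arc and Socs3 were named after their values were seen. Members and lists were chosen with earlier results of these data known. The alternatives were other floors, a pseudocount of 50, quantile normalization, centring on the median, array weights, the mean of all probe sets, other fold limits and leaving out each age or tissue. Leaving out spleen lymphocyte or the 10-month hypothalamus array was added after the data were seen. The fits were tested on simulated data with 100 genes changed by 1 and 100 by 2 log2 units. The age test from 4 to 10 months called 88 and 100 of them. The late-against-early test in bone called 37 and 97, so it missed most changes of 1 unit.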

Additional observations from a re-analysis of the deposited data

Results flagged for a closer look

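Jun moved in opposite directions in liver and bone between the 4-month and 24-month arrays, with a log2 change of 1.33 in liver and -1.42 in bone. The 2 tissues were the ones whose single arrays at these ages passed 2-fold for Jun. Each value rests on 1 array per age and 1 of 3 probe sets, and in bone 1 of the other 2 was not lower at 24 months (169 against 143). The difference between them was not tested as such, and the test of the late-against-early difference over all tissues did not call Jun (adjusted p = 0.49).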

How the results depend on the processing

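Of 690 values of the named differences under alternatives, 675 kept their direction and side of the threshold, 13 fell short of it, 2 passed it and 0 changed sign. The named differences include those of Atf3 in every tissue. Atf3 was under 100 on all arrays outside spleen lymphocyte, so its calls and signs could hardly change and say little about stability. Fos in spleen lymphocyte ranged from 2.42 with the mean of all probe sets to 5.38 with a floor of 50, and Dusp1 from 0.90 with that mean to 1.78 after centring. Ier2 in pituitary fell short with a floor of 200, with quantile normalization and with centring. Late-against-early calls were 0 to 1 with an age left out. Counts at 2-fold, 2 in each phase, were 9, 7 and 8 at 1.5-fold and 0 in each at 3-fold. With a signal of 50 they were 5 from 10 to 18 and 4 from 18 to 24 months, and with 200 they were 0 from 10 to 18 months. From 18 to 24 months they were 4 with quantile normalization and 4 with centring. With the mean of all probe sets they were 1 from 4 to 10 and 1 from 18 to 24 months, and with a tissue left out 1 to 2 in each phase. The cause was not tested. With an age left out, the lone array on that side of a tissue was assumed to vary like the others. Centring moved the median of all genes from -0.08 to 0.03 in spleen lymphocyte, from 0.06 to -0.11 in pituitary and from -0.23 to -0.12 in liver, and 0 of the named differences changed sign under it. The labels give no replicate numbers. The arrays of an age share their rats, which the age factor of the tissue fit takes in, and leaving that factor out changed 0 of the calls among the named differences. Leaving out the 10-month hypothalamus array, chosen after seeing the data, ended the call of Ier3 in hypothalamus.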
